A study of Bos taurus with 20 samples.

Results

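Expression of 8 genes of the interferon-gamma type was measured in bovine neck muscle: the guanylate-binding protein genes GBP1, GBP4, GBP5 and GBP6, the very large GTPase gene GVIN1, the tryptophan-degrading enzyme gene IDO1, the tryptophanyl-tRNA synthetase gene WARS1 and the transcription factor gene IRF1. They were taken from the deposited array files as every probe whose gene name, or whose symbol in the description, is one of these genes, with older symbols such as WARS and INDO counted. The rule found 10 probes for the 8 genes among 21475 probes on the array. The genes were chosen by their difference between treated and control animals, so that difference is described below and carries no test, while their change over storage over all animals was not used for the choice and is tested.

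Muscle came from 10 cattle, collected at a slaughterhouse and stored under vacuum at 4 °C. The 5 control animals (K3, K6, K8, K9 and K10) received no hormone that the labels mention. The 5 treated animals (DE27, DE29, DE30, DE31 and DE32) were given the glucocorticoid drug dexamethasone orally for 31 days (0.4 mg daily per head) and, alongside it, intramuscular estradiol, an oestrogen, on 6 occasions (5 mg weekly per head). Muscle of every animal was sampled before storage (day 0) and after 14 days of it, which gives 20 arrays in 4 groups of 5. Both drugs were given to the same animals, so their contributions cannot be told apart, and age, sex and breed are not given in the sources used here. The samples carried the transcripts of muscle fibres: the median signal of the creatine kinase gene CKM was 99473 in controls and 117573 in treated animals at day 0, and no array fell below 20589.

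Interferon-gamma is a cytokine of activated T cells and natural killer cells. It binds a receptor made of IFNGR1 and IFNGR2, whose kinases JAK1 and JAK2 pass the signal on to the nucleus, where IRF1 is switched on and in turn drives a second wave of genes. Guanylate-binding proteins are GTPases of that wave that act against intracellular microbes, IDO1 opens the kynurenine pathway by oxidising tryptophan, and WARS1 charges the tryptophan tRNA. Several of these genes also respond to type I interferons.

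Signals below are processed Cy3 intensities after each array was scaled to the same 75th percentile, and are relative units for 1 probe, so levels of different probes are not compared. Probes entered the tests if 5 or more of the 20 arrays had them well above background: 9 of the 10 probes did, and 7 reached that level on all 20. The GBP names need care. On the current assembly (ARS-UCD2.0), GBP1, GBP4 and GBP5 lie in 1 run of genes on chromosome 3 with genes that have only LOC numbers, among them LOC513659 and LOC533657, and these relatives can be near copies. The brighter GBP1 probe is filed under LOC512486, which is now GBP1, but its description says GBP3. The dimmer one is filed under LOC514143 and described as GBP1. The GBP5 probe (LOC516949) is described as GBP2, the GBP4 probe is named only by an expressed sequence tag, and the bright GBP6 probe belongs to LOC513659. The dim GBP6 probe (LOC533657) is described as GBP7 and was included only because GBP6 is a synonym of that gene. Which of the copies each GBP probe reports was not tested. Array values are listed in the order K3, K6, K8, K9, K10 for controls and DE27, DE29, DE30, DE31, DE32 for treated animals.

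Of the 9 tested probes, 9 were higher in treated than in control muscle at day 0, with log2 differences from 1.5 to 2.82 (median 2.17). The array as a whole had a median of -0.01, with 1.32% of tested probes called higher and 1.13% called lower at an adjusted p below 0.05. At day 14 the same 9 probes had differences from 0.86 to 2.68 (median 2.07), against 0.0259% of probes called higher, 0.0454% called lower and a median of 0.04 over all probes. All treated arrays lay above all control arrays for 4 of the 9 probes at day 0 and for 5 at day 14, where 2.92% and 1.18% of all tested probes did so. Because these probes were selected on this contrast, the counts restate the choice and nothing is read from them. In bulk muscle, fewer or more cells of a type and less or more RNA per cell cannot be told apart.

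IRF1 is the transcription factor of the set. IRF1 at day 0 gave a signal of 204, 914, 441, 573 and 225 in controls and 1057, 1259, 1844, 851 and 1104 in treated animals. IRF1 at day 14 gave 528, 1437, 1341, 1101 and 825 in controls and 996, 2914, 2560, 1247 and 1938 in treated animals. The groups overlapped on both days: control K6 lay above treated DE31 at day 0, and K6, K8 and K9 lay above DE27 at day 14, K6 and K8 also above DE31. The difference was 1.55 ± 0.40 (SE, n = 5 per group) on the log2 scale at day 0, or 2.93-fold, and 0.86 ± 0.36 at day 14, or 1.81-fold. It was the smallest of the 9 probes at day 14.

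WARS1 had the tightest groups. WARS1 at day 0 gave 536, 878, 593, 588 and 651 in controls and 2321, 1570, 1762, 2290 and 1407 in treated animals. WARS1 at day 14 gave 804, 1153, 950, 749 and 838 and 3346, 2584, 2205, 1816 and 2739. The lowest treated array lay above the highest control array on both days, and the SD within a group was 0.24 to 0.33 on the log2 scale. The difference was 1.52 ± 0.19 at day 0 and 1.48 ± 0.21 at day 14, or 2.87-fold and 2.80-fold.

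IDO1, the other tryptophan gene of the set, was also separated on both days. IDO1 at day 0 gave 37.6, 94.2, 46.3, 143 and 65.8 in controls and 555, 253, 350, 392 and 288 in treated animals. IDO1 at day 14 gave 66.4, 131, 261, 121 and 179 and 1288, 483, 494, 825 and 499. Control K8 moved from among the lowest controls to the highest between the days, yet stayed below all treated arrays of the same day. The difference was 2.36 ± 0.36 at day 0 (5.15-fold) and 2.27 ± 0.38 at day 14 (4.81-fold).

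Among the guanylate-binding protein genes, GBP6 showed the largest difference of the set at day 0. GBP6 at day 0 gave 71.8, 298, 145, 198 and 152 in controls and 2490, 440, 967, 1730 and 906 in treated animals. GBP6 at day 14 gave 102, 633, 304, 237 and 451 and 2543, 1077, 897, 1609 and 1866. The groups did not overlap on either day, and DE27 was the highest treated animal on both. The difference was 2.82 ± 0.48 (7.08-fold) at day 0 and 2.36 ± 0.46 (5.12-fold) at day 14. The second GBP6 probe was not well above background on any control array and on only 1 treated array at day 0 and 2 at day 14. Set against a control floor, its treated mean was 1.73-fold at day 0 and 1.47-fold at day 14. The floor averages, over the control arrays, the lowest signal well above background, or the probe's own signal if higher. A ratio to this floor is a lower bound only where every treated array is well above background, which was not so here.

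GBP4 separated the groups on both days as well. GBP4 at day 0 gave 67.7, 146, 63.6, 86.6 and 47.6 in controls and 232, 238, 314, 333 and 168 in treated animals. GBP4 at day 14 gave 72.0, 239, 64.7, 95.8 and 136 and 511, 701, 289, 381 and 470. K6 was the highest control on both days and came closest to the treated range. The difference was 1.71 ± 0.29 (3.27-fold) and then 2.06 ± 0.36 (4.18-fold).

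The bright GBP1 probe overlapped between the groups through 1 animal. GBP1 at day 0 gave 51.9, 367, 126, 113 and 93.9 in controls and 588, 370, 611, 1178 and 302 in treated animals. GBP1 at day 14 gave 49.1, 475, 129, 183 and 283 and 664, 910, 457, 1072 and 683. K6 lay above treated DE32 at day 0 and above treated DE30 at day 14, and every other control lay below all treated animals. The difference was 2.17 ± 0.50 (4.51-fold) at day 0 and 2.07 ± 0.51 (4.20-fold) at day 14. The dim GBP1 probe was well above background in K6 alone among controls at day 0 and in no control at day 14, against 2 treated arrays at day 0 and 4 at day 14. Its treated mean at day 14 was 3.18-fold the control floor, which is not a lower bound because DE30 was not well above background. Its fitted difference was 1.5 ± 0.50 at day 0.

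GBP5 was not detected on all arrays of any group. GBP5 at day 0 gave 3.09, 48.4, 13.9, 3.41 and 4.27 in controls and 146, 40.4, 3.34, 159 and 43.4 in treated animals. GBP5 at day 14 gave 4.61, 89.9, 4.43, 4.84 and 36.9 and 243, 87.7, 8.66, 190 and 101. It was well above background in 4 of 5 treated animals on both days and not in DE30 on either, although DE30 had high GBP4 and the highest IRF1 at day 0. Among controls it was well above background in K6 on both days, in K8 at day 0 and in K10 at day 14. The mean difference of 2.43 ± 1.08 at day 0 and 2.68 ± 1.05 at day 14 therefore averages over detected and undetected arrays and has the widest error of the set.

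GVIN1 encodes a very large interferon-inducible GTPase. GVIN1 at day 0 gave 31.8, 134, 31.5, 57.9 and 29.3 in controls and 260, 101, 161, 251 and 399 in treated animals. GVIN1 at day 14 gave 138, 258, 134, 132 and 121 and 502, 677, 308, 447 and 1140. K6 overlapped the treated animals at day 0, while no control reached the lowest treated animal at day 14. The difference was 2.17 ± 0.47 (4.51-fold) at day 0 and 1.89 ± 0.34 (3.71-fold) at day 14.

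**Figure D1:**
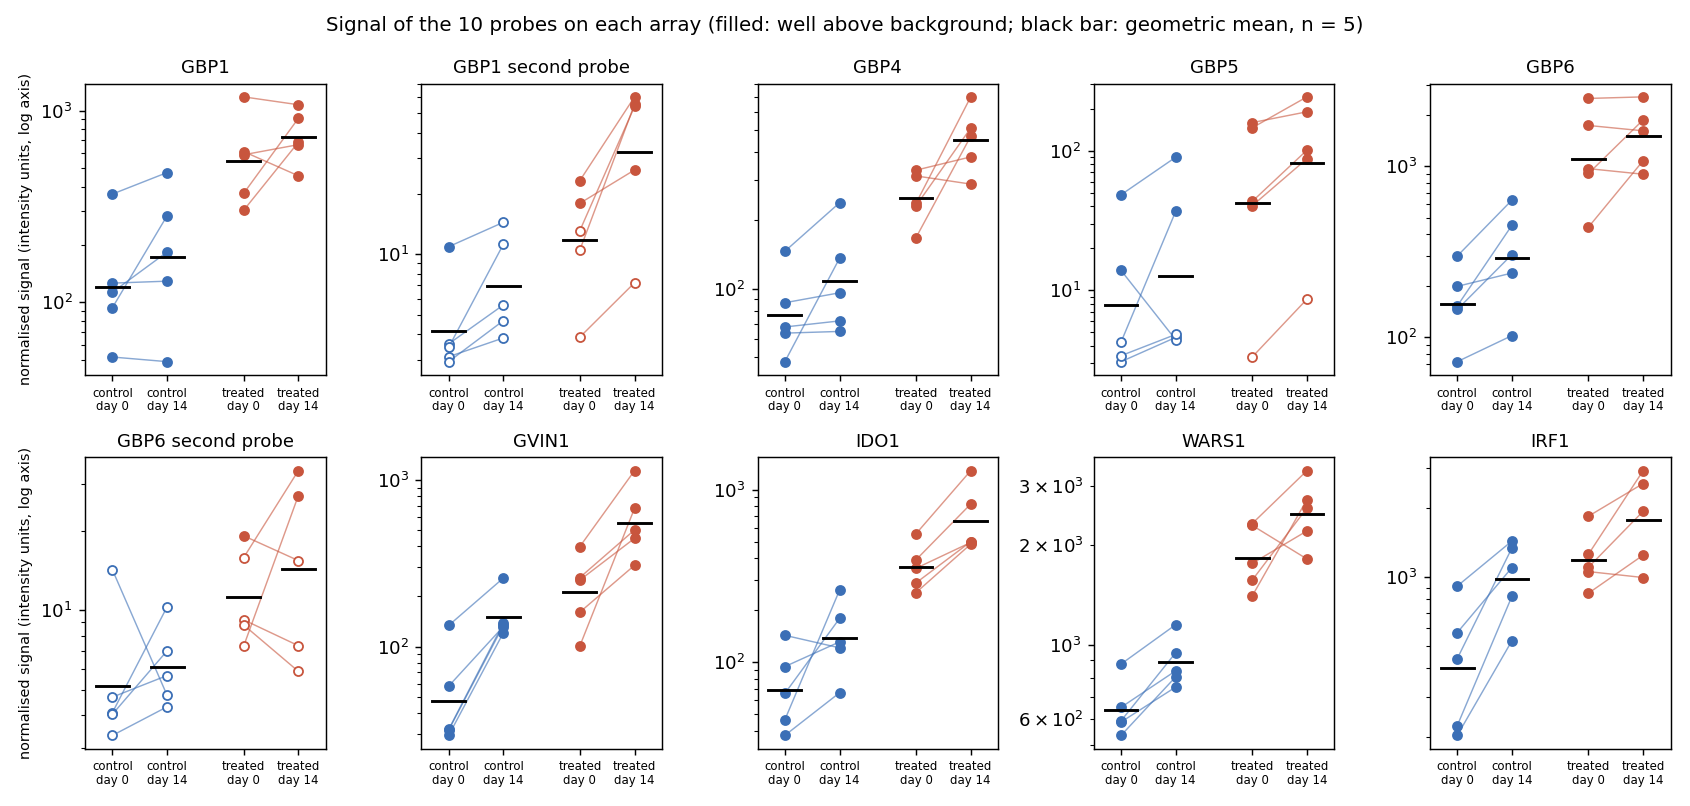
Normalised signal (intensity units, log axis, a separate scale per panel) of the 10 probes on the 20 arrays, with a line joining the samples of 1 animal, filled points for signals well above background and black bars for the geometric mean of 5 arrays. The treated mean lies higher in each panel although single animals overlap in several, GBP5 is undetected in 1 treated animal on both days, and GVIN1 is higher at day 14 in 10 of 10 animals.

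**Figure D2:**
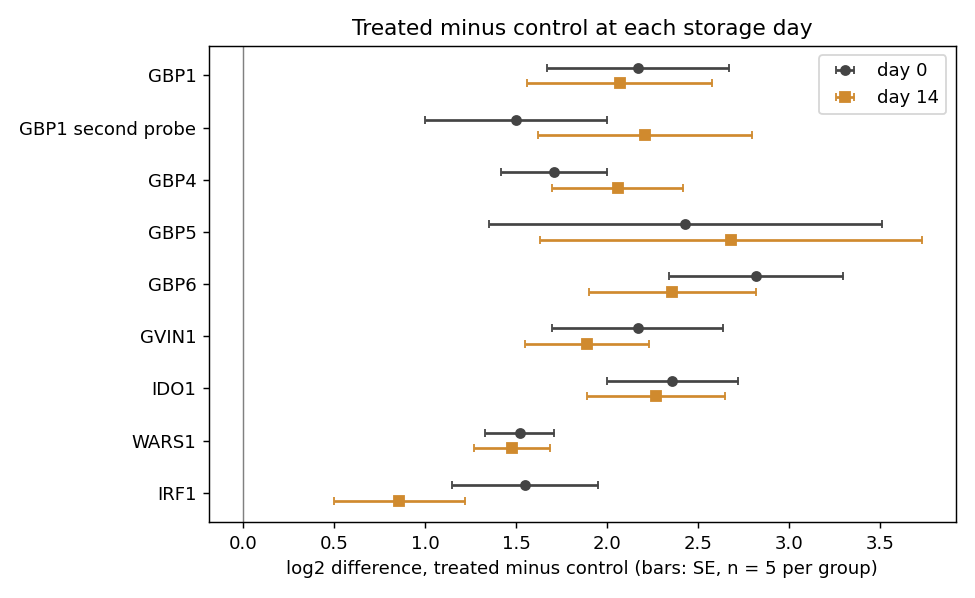
Log2 difference between treated and control animals for the 9 tested probes at day 0 (circles) and day 14 (squares), with SE bars and 5 animals per group. All values lie above 0, GBP5 has the widest bars and WARS1 the narrowest, and IRF1 has the smallest difference at day 14.

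The difference was of the same direction wherever both groups shared a glass slide or a scan session. These are the arrays on which the probes were chosen, so the shared direction follows in part from the choice and is given as description. The slides with both groups at day 0 were 3, and within them the lowest of the 9 differences was 0.64, 1.32 and 1.83. Within the 3 such slides at day 14 the lowest was 0.25, 0.70 and 1.23. With normexp background correction in place of the processed signal, the dim GBP1 probe had 0.26 at day 0 and 0.49 at day 14, and GBP5 had 0.62 at day 14. Control animal K6 was the highest control for 8 of the 9 probes at day 0 and for 8 at day 14. Without K6 the day 0 differences were larger, for example 2.57 for GBP1, 3.08 for GBP5, 2.55 for GVIN1 and 1.85 for IRF1. K3 was the lowest control for 6 probes at day 0 and 4 at day 14, and DE30 the lowest treated animal for 6 at day 14.

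Levels of cell type markers were looked up for K6 and for the groups. On the mean log2 level of the tested marker genes relative to the array's 75th percentile, K6 at day 0 had -2.65 for 6 pan-leukocyte genes, the lowest of the 10 animals at that day, and -5.43 for 5 natural killer and cytotoxic genes, also the lowest. Its T cell level was -4.08 over 8 genes, in a control range of -4.08 to -2.44. Its endothelial level at day 0 was 0.61, the highest control. At day 14 K6 had -1.11 for pan-leukocyte genes (controls -1.59 to -0.69) and -1.3 for macrophage and monocyte genes (controls -2.48 to -0.9). Its macrophage and monocyte level at day 0 was -2.59, the lowest of the 10 animals. For dendritic cell genes it had -4.09 at day 0, also the lowest, and -2.71 at day 14, the highest control. Whether cell content bears on the K6 values was not tested. Between the groups, the T cell level was -4.08 to -2.44 in controls and -4.26 to -3.61 in treated animals at day 0, and the pan-leukocyte level was -2.65 to -1.14 and -2.12 to -1.55. Macrophage and monocyte genes (13 of 15 tested) lay between -2.59 and -1.22 in controls and between -2.08 and -1.28 in treated animals. None of the T cell, natural killer, B cell, macrophage, dendritic cell, neutrophil or pan-leukocyte genes passed in the limma comparisons of treatment at day 0 or day 14. Over the mean of days 1 of 3 dendritic cell genes was called lower, where 1.97% of all tested probes were. Detection of cytotoxic and T cell markers was mixed. NCR1 and GZMA were not well above background on any of the 20 arrays and GZMB was on 5. PRF1 was on 16, and NKG7, XCL1, CD3E, CD8A and CD8B were on all 20.

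The interferon-gamma pathway itself was measured with gene lists, 1 probe per gene (the brightest tested), with adjustment over all tested probes. IFNG, the ligand gene, was well above background on 1 of 20 arrays and was not tested. Of 14 tested genes of its receptor and signalling chain, 0 passed at day 0 (median 0.06) and 0 at day 14 (median -0.11) by limma. At an unadjusted p below 0.05, 2668 of all probes passed at day 0 and 1610 at day 14. The receptor gene IFNGR1 fell by 0.74 ± 0.16 over the mean of both days (adjusted p = 0.0312, limma), the only call of that list. Over the mean of days, 1.41% of all tested probes were called higher and 1.97% lower. IFNGR1 passed under 13 of 20 alternative settings (adjusted p from 0.0199 to 0.193).

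IFNGR2 (-0.30 ± 0.19 at day 0 and -0.18 ± 0.24 at day 14), JAK1 (0.18 ± 0.17 and -0.04 ± 0.18) and JAK2 (-0.38 ± 0.16 and -0.21 ± 0.24) did not pass in either comparison. SOCS1, the feedback inhibitor of the receptor, had 0.80 ± 0.21 at day 0 (adjusted p = 0.0772) and -0.03 ± 0.29 at day 14. The chemokine gene CXCL10 had 0.51 ± 0.27 at day 0 and -0.28 ± 0.32 at day 14, and CXCL9, well above background on 5 arrays, had 0.09 ± 0.58 and -0.03 ± 0.50.

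Of 39 tested interferon-gamma target genes outside the 8, 3 rose at day 0 and 0 fell (list median 0.36, all probes -0.01). They were the immunoproteasome subunit genes PSMB9 and PSMB8 and NLRC5, an activator of MHC class I genes. PSMB9 signal was 555 to 833 in controls and 1512 to 1986 in treated animals at day 0, with no overlap. It rose by 1.27 ± 0.16 (2.41-fold, adjusted p = 0.00401), and passed in 20 of 20 alternatives. PSMB8 rose by 0.90 ± 0.14 (adjusted p = 0.0130), from 585 to 750 in controls to 968 to 1446 in treated animals. NLRC5 rose by 0.89 ± 0.19 (adjusted p = 0.0415, 0.0204 to 0.407 over the alternatives), and a second, dimmer NLRC5 probe had -0.36 ± 0.18 (adjusted p = 0.345).

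At day 14, 0 of the 39 passed (list median 0.33). Over the mean of days PSMB9 (1.04 ± 0.18), NLRC5 (0.98 ± 0.18) and XAF1, a pro-apoptotic interferon target (0.89 ± 0.21), rose, and ICAM1, an adhesion molecule, fell by 0.66 ± 0.15 (adjusted p = 0.0126, 0.0181, 0.0458 and 0.0393). XAF1 passed in 9 of 20 alternatives and ICAM1 in 6 of 19. Of 17 tested type I interferon antiviral genes, 1 rose at day 0, 1 at day 14 and 6 when the days were averaged (list medians 0.77, 0.63 and 0.70). IFIT3 was the gene called on each day. It was not well above background in any control and lay at 20.2 to 52.9 in treated animals at day 0. The treated mean was at least 5.99-fold higher at day 0 (limma adjusted p = 0.00281). At day 14 it was 3.83-fold the control floor, with 4 treated arrays well above background (adjusted p = 0.0372, which passed in 7 of 19 alternatives). IFIT3 was well above background on 9 arrays, all of treated animals, and so entered the tests only through that group. Its adjusted p values are therefore not read as support. ISG15 (1.40 ± 0.32), RSAD2 (0.98 ± 0.22), IFI44L (0.93 ± 0.21) as well as HERC6 and ZBP1 passed over the mean of days, with adjusted p from 0.00886 to 0.0399. HERC6 and ZBP1 were well above background on few control arrays. ZBP1 was at least 3.53-fold higher in treated animals at day 14. HERC6 in treated animals at day 0 was 1.68-fold the control floor, which is not a lower bound because only 2 treated arrays were well above background. Of the 7 arrays with HERC6 well above background, 1 was a control, and of the 12 with ZBP1, 2 were controls. Both genes entered the tests through the treated group, so their adjusted p values are not read as support either. IFIT3, HERC6 and ZBP1 are among the 6 genes called over the mean of days. ISG15 and RSAD2 each passed in 10 of 20 alternatives, IFI44L in 9 of 20, HERC6 in 18 of 19 and ZBP1 in 12 of 19. With normexp correction 0 of the 17 passed over the mean of days. Leaving out control K6 raised the count of pathway genes that passed at day 0 from 4 to 10. Among those added were ISG15 (1.94, limma adjusted p = 0.0232), RSAD2, IFI44L, HERC6 and ZBP1. HERC6 and ZBP1 have the same limit there, and the share of all probes called without K6 is not given here.

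Of 8 other interferon-inducible GTPases and relatives, 7 tested members of the IRF family and 11 genes of the tryptophan and kynurenine pathway, 0 passed in the treatment comparisons by limma. The smallest p at day 0 belonged to DNM1L (0.54 ± 0.20) and ATL2 (-0.56 ± 0.23) among the GTPases, to IRF8 (0.76 ± 0.28) in the IRF family, and to KYAT1 (0.71 ± 0.25) and SLC7A8 (-1.18 ± 0.43) in the tryptophan list. IDO2, the neighbour of IDO1 on chromosome 27, was well above background on 1 array and not tested. TDO2, KMO and KYNU, which act beside or after IDO1, were not well above background on any array. The array has no GBP2 probe other than the one described as GBP2 and filed under the gene number that is now GBP5. Among guanylate-binding probes that the rule leaves out, LOC533818 and LOC510788 were not well above background on any control array. At day 0 their treated means were 2.0-fold and 2.14-fold the control floor, with 3 treated arrays well above background for each (limma adjusted p = 0.0403 and 0.0610). Both entered the tests only through treated arrays, so these p values are not read as support. LOC507055, described as GBP7 and not tested, had median signals of 2.84 (control) and 3.14 (treated) on day 0 arrays, and of 4.8 and 4.95 on day 14 arrays.

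**Figure D3:**
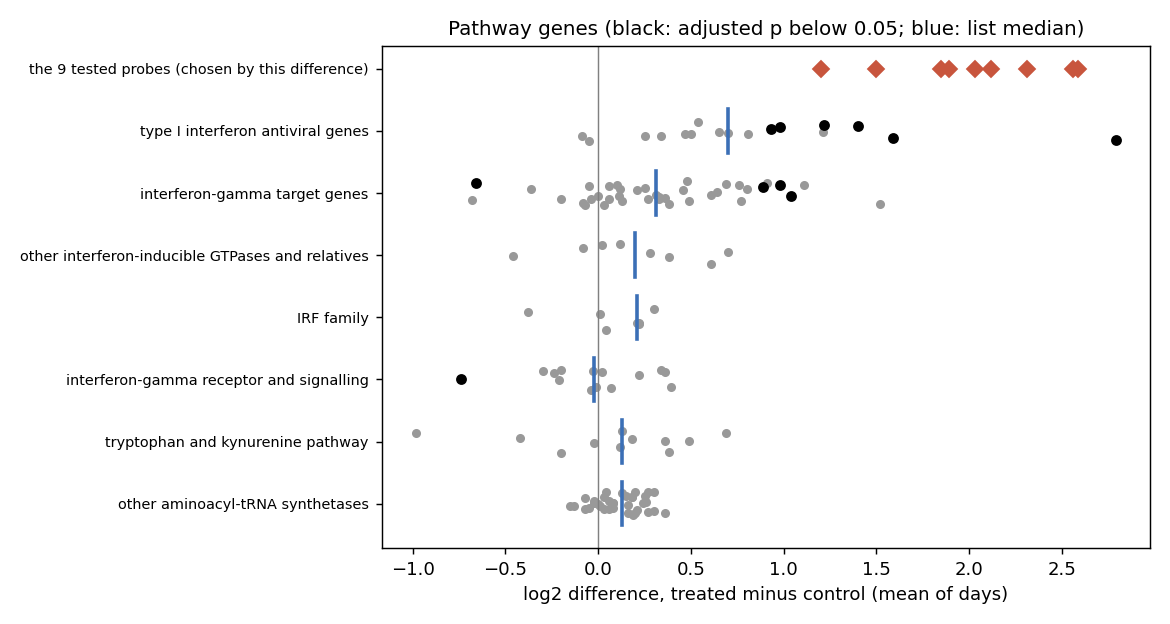
Log2 difference between treated and control animals, as the mean of both days, for each tested gene of 7 pathway lists, with the 9 probes that were chosen by this difference at the top. Black points passed at an adjusted p below 0.05 and blue bars are list medians, from 0.70 for type I interferon antiviral genes to -0.02 for receptor and signalling genes.

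WARS1 stood beside 35 other tested aminoacyl-tRNA synthetase and cofactor genes. By limma, 0 of the 35 passed in the day 0, day 14 or mean treatment comparison. Their log2 treatment differences at day 0 ran from -0.74 (MARS1) to 0.48 (MARS2) with a median of 0.04, and at day 14 they reached up to 0.77 (MARS1) with a median of 0.18, where WARS1 had 1.52 and 1.48. WARS2, the mitochondrial tryptophan enzyme, was well above background on 1 array and was not tested. Smallest p at day 0 were those of MARS2 (0.48 ± 0.16, adjusted p = 0.137) and FARSA (-0.26 ± 0.14, adjusted p = 0.377).

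Most of the 8 genes were higher after storage. Over all 10 animals, with treatment as a covariate, 9 of 9 probes had a positive day 14 minus day 0 difference (median 0.81, all probes 0.10), and 6 passed, in a fit where 31.2% of all tested probes were called higher and 23.3% lower. GVIN1 rose by 1.53 ± 0.30 (2.90-fold, adjusted p = 0.000244) and was higher at day 14 in 10 of 10 animals. IDO1 rose by 0.95 ± 0.27 (adjusted p = 0.00538), IRF1 by 0.94 ± 0.28 (adjusted p = 0.00848) and WARS1 by 0.46 ± 0.13 (adjusted p = 0.00735), each in 9 of 10 animals. GBP4 rose by 0.67 ± 0.24 (adjusted p = 0.0232, 9 of 10 animals). The dim GBP1 probe passed with 1.1 ± 0.41 (adjusted p = 0.0275), but it was well above background on only 7 arrays. The lowest signal well above background was 4.21 to 6.53 on day 0 arrays and 7.74 to 13.2 on day 14 arrays, and the part of this rise in the values of dim probes was not tested.

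GBP6 (0.66 ± 0.34, adjusted p = 0.109), GBP5 (0.81 ± 0.79, adjusted p = 0.392) and the bright GBP1 probe (0.47 ± 0.37, adjusted p = 0.290) did not pass. With the animal as a block, which compares the 2 samples of each animal, GBP6 also passed (0.66 ± 0.19, adjusted p = 0.00990). In controls alone GVIN1 (1.68 ± 0.41, adjusted p = 0.00867) and IRF1 (1.29 ± 0.43, adjusted p = 0.0327) rose, 2 of 9 probes, with 21.7% of all probes called higher and 17.4% lower. With the animal block the control count was 4, with GBP6 (adjusted p = 0.0219) and the dim GBP1 probe added, the latter well above background on only 1 control array. In treated animals GVIN1 (1.39 ± 0.41, adjusted p = 0.0250), GBP4 (0.85 ± 0.27, adjusted p = 0.0326) and IDO1 (0.90 ± 0.31, adjusted p = 0.0499) rose, 3 of 9, with 17.8% of all probes called higher and 11.8% lower. There the block gave 4, with GBP5 (adjusted p = 0.0213) and the dim GBP1 probe (0.0157) called and GBP4 (0.0725) not. The share of all probes called with the animal block is not given here, so those counts are not read as particular to these genes. The tests within controls and within treated animals share the day 0 arrays with the contrast that chose the genes and are not independent of that choice.

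These storage calls depended on the glass slide and on the scaling. Only 2 of the 6 slides hold both days, and a fit with slide as the block called 0 of the 9 probes over all animals. GVIN1 then had 1.29 (adjusted p = 0.115, limma) and IRF1 1.14 (adjusted p = 0.180). With that block 2273 of all probes were called in place of 8419. Slide 6 holds the control arrays K3 and K8 at day 14 and K10 at day 0, so its days come from different animals. Within it 8 of the 9 probes were higher at day 14, GVIN1 by 2.21 and IRF1 by 1.90. The bright GBP1 probe had -0.24, where the change within K10 itself was 1.59. Within slide 5, with 1 treated animal, 9 of 9 were higher, from 0.79 to 2.05. Centring on the array median moved the median of all probes from 0.10 to -0.21 and left GVIN1 as the 1 call over all animals (1.23, adjusted p = 0.00136). The 75th percentile of the signal was 657 to 949 at day 0 and 278 to 534 at day 14.

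Leaving out single animals also ended calls. Over all animals, GBP4 lost its call without K10, DE27, DE29 or DE32 (adjusted p = 0.0632, 0.05, 0.0655 and 0.0654), and the dim GBP1 probe without K10, DE29 or DE32. IRF1 in controls did not pass without K8, K9 or K10 (0.0993, 0.0808 and 0.0757). In treated animals, GVIN1 did not pass without DE29 or DE31 (0.109 and 0.0616). GBP4 passed there only with DE30 left out among the 5 omissions, and IDO1 only with DE27 left out. Without DE29 or without DE31, 0 of the 9 probes passed in treated animals.

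The change over storage was not found to differ between treated and control animals. In the limma test of that interaction 0.0% of all probes were called (534 at an unadjusted p below 0.05). IRF1 had the most negative difference of the set (-0.70 ± 0.56, treated minus control) and the dim GBP1 probe the most positive (0.71 ± 0.82). With the change of each animal as 1 value, the SE of these differences was 0.31 and 0.40. These values share the day 0 arrays with the contrast that chose the genes and are given as description.

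**Figure D4:**
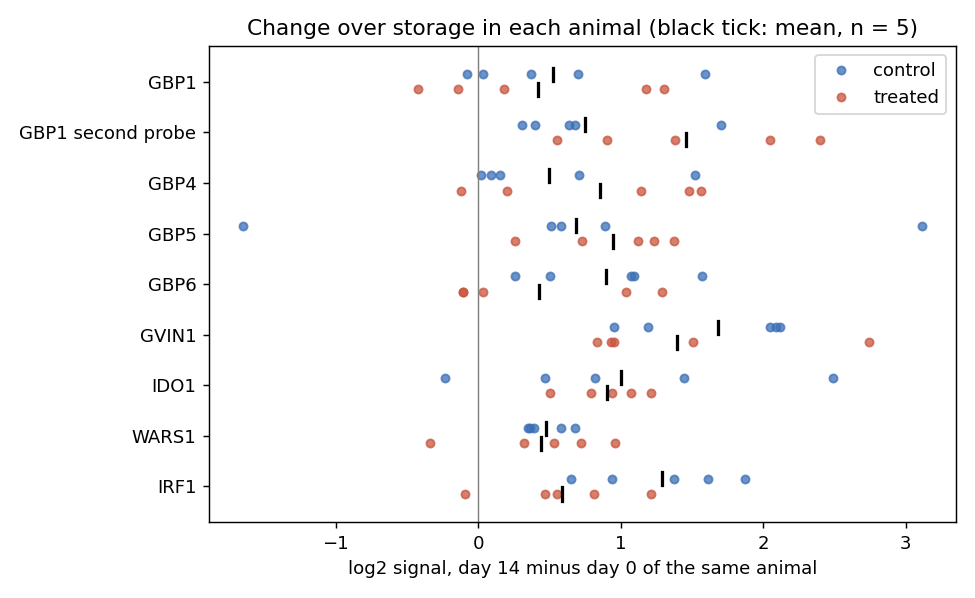
Log2 signal at day 14 minus day 0 of the same animal for the 9 tested probes, with 1 point per animal and a black tick for the mean of 5. GVIN1 points all lie above 0, and the bright GBP1 probe has 7 of 10 above 0.

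The pathway lists moved in both directions over storage. Of the 35 other synthetase genes, 20 fell and 1 rose over all animals (median -0.42), while WARS1 rose. In that fit 23.3% of all probes were called lower and 31.2% higher. KARS1 fell by 1.21 ± 0.15 (adjusted p = 2.18e-06) and IARS1 by 0.98 ± 0.15 (adjusted p = 1.98e-05), and YARS1 was the gene that rose (0.27 ± 0.08, adjusted p = 0.00963). In controls 16 fell and 0 rose (all probes 17.4% lower, 21.7% higher), led by KARS1 and AIMP2 (-1.06 ± 0.23). In treated animals 10 fell and 0 rose (all probes 11.8% lower, 17.8% higher), led by KARS1 and IARS1. Whether WARS1 differs from the other synthetases in this change was not tested. With the slide as a block 1 of the 35 fell and 0 rose (median -0.32).

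**Figure D5:**
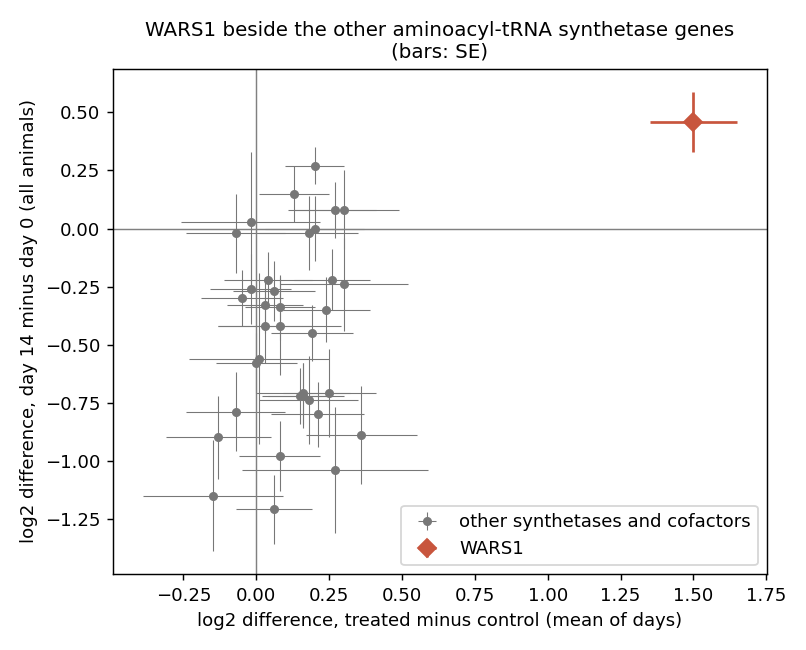
Treatment difference (x axis, mean of both days) against storage difference (y axis, all animals) on the log2 scale for WARS1 and 35 other aminoacyl-tRNA synthetase and cofactor genes, with SE bars. WARS1 lies at 1.5 and 0.46, and the other genes lie near 0 on the x axis with a median of -0.42 on the y axis.

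Of the interferon-gamma target genes 16 of 39 rose over storage and 3 fell (median 0.41), beside 31.2% of all probes called higher and 23.3% lower. DTX3L, a ubiquitin ligase, rose by 1.14 ± 0.16 (adjusted p = 1.09e-05), and TAPBP, which loads peptides on MHC class I, fell by 0.80 ± 0.12 (adjusted p = 1.23e-05). With the array median as the centre the split was 8 and 9, and with the slide as a block 3 and 1. In controls 12 rose and 2 fell, led by PSMB8 (1.19 ± 0.19) and TAPBP (-0.84 ± 0.16), and in treated animals 6 rose and 1 fell, led by SLAMF7 (1.45 ± 0.29) and DTX3L (1.02 ± 0.22). Of the 17 type I interferon genes 11 rose and 1 fell (median 0.68), with HERC6 (well above background on 7 arrays) at 1.71 ± 0.21 and RSAD2 at 1.39 ± 0.20. There 8 rose and 1 fell in controls and 4 and 1 in treated animals, and 4 and 1 over all animals with the slide as a block.

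Receptor and signalling genes went both ways, with 5 that rose and 6 that fell of 14 (median -0.30), beside 31.2% of all probes called higher and 23.3% lower. PIAS1, an inhibitor of cytokine signalling, rose by 1.41 ± 0.23 (adjusted p = 3.83e-05), and JAK1 fell by 0.70 ± 0.12 (adjusted p = 5.82e-05). SOCS1 rose (0.55 ± 0.20) and IFNGR2 (-0.38 ± 0.15) and JAK2 (-0.37 ± 0.14) fell, with adjusted p from 0.0260 to 0.0371, while IFNGR1 had -0.27 ± 0.19 (adjusted p = 0.225). When slide was blocked, 1 gene rose and 1 fell.

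In the tryptophan list 3 rose and 4 fell of 11 (median -0.01). AADAT, a kynurenine aminotransferase, fell by 1.84 ± 0.27 and DDC, an aromatic amino acid decarboxylase, by 2.01 ± 0.34 (adjusted p = 1.46e-05 and 6.25e-05). Among the 8 other GTPases 5 rose and 1 fell, led by ATL2 (1.63 ± 0.18) and IRGQ (1.0 ± 0.13), and in the IRF family IRF3 (0.77 ± 0.13) and IRF9 (0.37 ± 0.14) rose. Endothelial markers moved with storage too: 11 of 12 rose over all animals (median 0.80), with a mean log2 level, relative to the 75th percentile of the array, of 0.19 to 0.72 at day 0 and 0.55 to 1.97 at day 14. Of tested leukocyte markers, 3 of 8 T cell, 3 of 5 natural killer, 2 of 6 pan-leukocyte, 1 of 5 B cell, 1 of 3 dendritic cell and 1 of 3 neutrophil genes rose, where 31.2% of all probes did. In that fit 1 of 13 macrophage and 3 of 6 fibroblast genes fell, where 23.3% of all probes did. The part of these cell types in the storage values of the 8 genes was not tested.

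For 4 of 10 probes the deviations of the animals correlated between the days at an adjusted Pearson p below 0.05 (permutation), and for 2 of 10 by Spearman rho. For each probe, the deviation of an animal from its group mean at day 0 was set against that at day 14 over the 10 animals, 10 relations in all. The share of all tested probes with such a correlation is not given here, so the counts are not read as particular to these genes. IRF1 had Pearson r = 0.74 (permutation p = 0.0141, adjusted p = 0.0352) and Spearman rho = 0.82 (permutation p = 0.00562, adjusted p = 0.0281), and r = 0.62 without the 2 animals farthest from the median. GBP6 had r = 0.74 (permutation p = 0.0136, adjusted p = 0.0352), rho = 0.73 (permutation p = 0.0199, adjusted p = 0.0663) and r = 0.76 without 2 animals. GBP5 had r = 0.81 (permutation p = 0.00515, adjusted p = 0.0352) and rho = 0.71 (adjusted p = 0.0681), with r = 0.51 after the omission.

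The bright GBP1 probe had r = 0.69 (permutation p = 0.0297, adjusted p = 0.0594), which rested on 2 animals, since r was 0.06 without them. The dim GBP1 probe had r = 0.79 (adjusted permutation p = 0.0352) and rho = 0.88 (adjusted p = 0.0165), with r = 0.46 after the omission, and the dim GBP6 probe r = 0.07. WARS1 (r = 0.24, and -0.78 without 2 animals), GBP4 (0.27) and IDO1 (0.34) had adjusted permutation p of 0.489 to 0.549. GVIN1 had r = 0.59 (adjusted permutation p = 0.123). Some animals had both samples scanned in 1 session, and no session holds enough animals for a value of its own.

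Between genes, the 7 probes that were above background on all arrays gave 21 pairs over the 10 animals, each animal taken as the mean of its 2 deviations from the group means. All 21 Pearson r were positive over the 10 animals, from 0.13 to 0.86 with a median of 0.51. Without the 2 animals farthest from the median, 6 of the 21 were negative, and r ran from -0.81 (GBP6 and IRF1) to 0.85 with a median of 0.31, so the common sign rested on those animals. Over all 10 animals 1 pair had an adjusted permutation p below 0.05. That pair was GBP6 and IDO1 (r = 0.86, permutation p = 0.00152, adjusted p = 0.0319, rho = 0.81 with adjusted p = 0.0771, r = 0.85 without 2 animals). K6 and K3 stood at opposite ends for several genes: the mean deviation of K6 was 1.53 for GBP1, 1.02 for GBP6 and 1.15 for GVIN1 on the log2 scale, and that of K3 was -1.52, -1.32 and -0.34. The deviation of DE30 for GBP5 was -3.45 and for IRF1 0.58.

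Over the 20 arrays, the named genes whose profile was most like the mean profile of the 7 probes were ZBP1 (Pearson r = 0.900), NLRC5 (0.883), ISG15 (0.866), FABP5 (0.859) and SP110 (0.853). These profiles share the treatment and storage differences. Over deviations from the 4 group means they were ERAP1 (0.781), ZBP1 (0.761), ODZ2 (0.736), KCNA6 (0.735) and CKAP5 (0.713). Per gene, the closest over the 20 arrays was ISG15 for GBP1 (0.834), ZBP1 for GBP4 (0.910), ARMC9 for GBP6 (0.817) and UBA7 for GVIN1 (0.930). It was AGTRAP for IDO1 (0.888), NLRC5 for WARS1 (0.881) and TNFSF10 for IRF1 (0.831). Within groups NLRC5 stayed the closest to WARS1 (0.775), and TST was the closest to IDO1 (0.922).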

How the data were processed

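Total RNA of bovine neck muscle was extracted with RNeasy Mini columns, labelled with cyanine 3 and hybridised to a 1-colour bovine Agilent array, per the labels' protocols. Feature Extraction 9.5.1.1 made, per the file headers, the deposited processed signal, a background-subtracted intensity per spot. The submitters' processing notes name R 2.11.1. A series table deposited by the authors holds linear intensity values too, normalised by a method not given in the sources used here (array medians 98.4 to 165.0, scale linear and direction that of the scanner values), used as an alternative.

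Intensity was turned into log2, scaled so that the 75th percentile of every array equals their mean, and averaged over the 2 spots of a probe after 935 outlier spots were left out. Of 21475 probes, 15431 were well above background on at least 5 of 20 arrays and were tested with limma 3.58.1 in R 4.3.3 (adjusted p by Benjamini-Hochberg over all of them, threshold 0.05). limma was checked on simulated data. Tables and figures used Python 3.11.15, pandas 2.3.3, scipy 1.17.1 and matplotlib 3.10.9. Alternatives were normexp background correction, quantile normalisation, median centring, the series table, other filters on dim probes, the mean of a gene's probes, the slide, scan session or animal as a block, and leaving out each animal. Permutation p-values are two-sided, from 100000 resamples. The number of animals limits precision, since arrays give no counts.

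Titles and characteristics set the groups. The description field goes against the titles and was not used, and a treated day 0 title reading D31 was taken as DE31. Animal numbers pair the days because both samples come from 1 animal. Deviations of the 2 samples of an animal correlated between -0.15 and 0.28 over the tested probes. Gene names came from the deposited annotation and a table of current genes (ARS-UCD2.0). The 8 genes, the lists and the tests were chosen with earlier results of these data known. Named list genes are those that passed in a treatment comparison, otherwise the 2 with the smallest p, the 2 with the smallest p that passed over storage, and a fixed set of pathway genes. A few listed genes are not reported here by name.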

Additional observations from a re-analysis of the deposited data

Results flagged for a closer look

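Of 36 sets of 5 arrays (9 tested probes in 4 groups), 2 had 1 array set apart from the other 4 by a gap that was most of the range of the group, and chance alone gives about 1 in 20. Both were arrays of control animal K6. The dim GBP1 probe had a signal of 10.9 in K6 at day 0, against 2.93 to 3.59 in the other controls (gap over range 0.84). GVIN1 had 258 in K6 at day 14, against 121 to 138 in the other controls (0.83).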

How the results depend on the processing

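All alternatives were planned. Each of the 9 probes kept a positive treatment difference at day 0, day 14 and over the mean of days in all alternatives run. The probes were chosen by that difference on the same arrays, so this is a description. Over storage, 2 values that had not passed turned negative with the slide block: the bright GBP1 probe in controls (-0.24) and GBP5 over all animals (-0.20). The value in controls comes from slide 6 alone, where the days are from different animals. With median centring the interferon-gamma target genes split into 8 that rose and 9 that fell over all animals, in place of 16 and 3. Counts of pathway genes that passed with treatment moved as follows. At day 0 the count was 4, and 7 with median centring, 7 with probes above background on all 20 arrays and 9 with the scan session as a block. It ran from 3 to 10 when 1 animal was left out. At day 14 the count of 1 became 0 with normexp, with probes above background on all arrays, and with the slide or the session as a block, and 3 with the animal as a replicate block (0 to 1 without 1 animal). Over the mean of days the count of 11 became 2 with normexp, 6 with no filter, 17 with the slide block, 23 with the session block and 22 with the animal block (3 to 13 without 1 animal).

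Over storage, pathway genes that passed numbered 58 in controls (2 with the slide block, 28 to 63 without 1 animal), 34 in treated animals (61 with normexp, 0 with the slide block, 19 to 46 without 1 animal) and 77 over all animals (17 with the slide block). Of the 9 probes, 2 passed in controls, and 6 with normexp, 1 with median centring, 0 with the slide block and 4 with the animal as a block (1 to 3 without 1 animal). In treated animals 3 passed, and 0 with median centring, 1 with the authors' deposited table and 0 with the slide block (0 to 3 without 1 animal). Over all animals 6 passed, and 1 with median centring and 0 with the slide block. For most of these alternatives the share of all probes called is not given here. The counts of pathway genes and of the 9 probes are therefore not read as particular to them. The slide block leaves 2 slides that hold both days, and the cause of the other moves was not tested. Dim probes (GBP5, the second GBP1 and GBP6 probes) limit what can be said of those genes.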
